A study of Mus musculus with 23 samples.

Results

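Spp1 and 8 receptor genes of its protein, Cd44, Itgav, Itgb3, Itgb1, Itgb5, Itga4, Itga5 and Itga9, were followed through 23 RNA-seq libraries of sorted retinal microglia. The members were listed by gene symbol as the secreted ligand SPP1 (osteopontin), its receptor CD44 and the integrin subunits that bind it. These 9 genes were found among the 35825 genes of the deposited table, each by its Ensembl identifier, and all 9 passed the filter on low values and were tested among 17102 genes. The study asked how SPP1 made by alpha retinal ganglion cells instructs microglia after damage to the optic nerve. Microglia were taken as live GFP+ cells from CX3CR1-GFP mice (called WT) and from Spp1 KO; CX3CR1-GFP mice (called KO, a global deletion). In both lines GFP stands in the Cx3cr1 gene. The methods describe heterozygous carriers as the start of the breeding with Spp1 KO mice. They do not state the Cx3cr1 genotype of the mice that were sampled. Each genotype was sampled in naïve retinas (4 libraries), at 4 weeks after intraocular pressure was raised by microbeads in the anterior chamber (IOP, 4 libraries) and at day 7 after optic nerve crush (ONC, 3 WT and 4 KO libraries). The sample labels call the naïve libraries control. The methods describe a saline injection for control mice of the microbead model. Whether these libraries came from untouched or injected eyes is not settled by the sources used here. The methods state equal numbers of males and females for the study as a whole. The sex of each library was not among the labels used here. The age of the mice was not given in the sources used here, beyond that groups were age-matched. The methods describe pooling of retinas before sorting, and whether each library came from a single mouse or from a pool is not settled by the sources used here, so p-values measure the spread between libraries.

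SPP1 is a secreted, phosphorylated glycoprotein of the SIBLING family that lies both in mineralized matrix and free in tissue fluid. It holds an arginine-glycine-aspartate (RGD) tripeptide, which integrins alphaV-beta3, alphaV-beta5, alphaV-beta1 and alpha5-beta1 recognise, and next to it a stretch that thrombin cleavage exposes to integrins with the alpha4 or alpha9 subunit and beta1. CD44, the hyaluronan receptor, is the non-integrin receptor of SPP1. An integrin is a pair of an alpha and a beta subunit, so the RNA of one subunit alone does not give the amount of a receptor. In the brain, Spp1 is among the genes that disease-associated microglia express.

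The coding stretch around the integrin sites of Spp1 is shown because it ties the ligand to the receptor groups that follow. It lies at chr5:104439466-104439519 of GRCm38, on the plus strand, in exon 6 of the 7 exons of the GENCODE transcript Spp1-201, whose reading frame has 294 residues. The RGD codons, in capitals, encode residues 144 to 146, and the lower-case bases after them encode the site of the alpha4 and alpha9 integrins.

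Spp1 coding stretch: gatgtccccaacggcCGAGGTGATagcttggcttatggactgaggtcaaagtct

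The gene itself (ENSMUSG00000029304.14) spans 104435118 to 104441050 of chromosome 5, and its promoter is shown because the level of Spp1 varied most among the members. A stretch of 90 bases from RefSeq's promoter table (GRCm38.p6), from 150 to 61 bases before the annotated start at chr5:104434961-104435050, plus strand, holds the letters ACCACA, the reverse complement of the RUNX core TGTGGT, 128 bases before the start, and GAGGAA, letters of the ETS factor PU.1, 113 bases before it. Both are in capitals.

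Spp1 promoter stretch: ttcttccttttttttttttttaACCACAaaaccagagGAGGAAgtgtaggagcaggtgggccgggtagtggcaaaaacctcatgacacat

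Searched on both strands of the 32851 promoters of 300 bases in that table, TGTGGT or ACCACA was found in 16.8% and GAGGAA or TTCCTC in 28.3%, so these letters are a description and not a site. The AP-1 letters TGANTCA were in 7.81% of promoters and the E-box CACGTG in 7.15%, and neither was in these 300 bases of Spp1. Promoters were listed for 8 of the 9 members. TGTGGT or ACCACA was also found in that of Itga4, and GAGGAA or TTCCTC in those of Cd44, Itgav, Itgb1 and Itga5. TGACTCA was found in the one listed for Itga9, 38 bases after the start. That promoter, at chr9:118711442-118711741, belongs to a start inside the gene, which begins at 118606690 on the plus strand.

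The libraries held 22180480 to 30296094 reads on genes, at which 3 reads, the upper limit for a gene without reads, equal 2.41 to 4.03 normalized counts (counting error only). P2ry12, a purinergic receptor of homeostatic microglia, was found at 17495 to 70733 normalized counts in every library, and a list of 21 microglia markers held 2.32 to 7.39% of a library. Some libraries stood apart. KO naïve replicates 1, 2 and 4 had a microglia list of 2.32, 2.85 and 3.08% against 6.59% in replicate 3, and a rod photoreceptor list of 3.23, 3.42 and 3.80% against 1.21%. WT IOP replicates 1 and 4 had a microglia list of 3.55 and 3.84% and a lens list of 1.02 and 1.10%. All 4 WT IOP libraries held lens RNA, at 0.215 and 0.150% in replicates 2 and 3, beside at most 0.0221% in WT naïve, and 13 of 16 lens genes were called as higher in WT IOP than in WT naïve. In the 4 KO IOP libraries Cx3cr1, the gene that carries the GFP, was at 1083 ± 115 (SD, n = 4), against 41166 ± 13975 (SD, n = 4) in WT IOP, and a list of 4 Y chromosome genes held at most 0.000636% of a library, against 0.00532% or more in WT IOP. Libraries as low in it were also found in WT naïve and WT ONC, down to 0.000334%.

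Spp1 was the member that differed most between groups. In the WT naïve libraries its normalized counts were 1228, 1518, 334 and 492. After IOP elevation the WT libraries were at 2353, 2410, 1343 and 2772, and after ONC they were at 14557, 16067 and 22906. Every WT ONC library lay above every other library of the series, whereas the ranges of WT IOP and WT naïve overlapped, since the lowest WT IOP library was below the highest WT naïve one. WT ONC exceeded WT naïve by 4.55 on the log2 scale of normalized counts (SE 1.70, limma, adjusted p = 0.0652), which did not pass the call used throughout (an adjusted p under 0.05 with a log2 fold change beyond 0.58 in either direction). The spread of that fit is shared with the KO libraries. In a fit of the WT naïve and WT ONC libraries alone the adjusted p from limma was 0.00378, and on recovered reads it was 0.0299 with edgeR and 0.00533 with DESeq2. In WT IOP against WT naïve the log2 fold change of Spp1 was 1.53 (SE 1.58, adjusted p = 0.726). In bulk samples, a change in the share of cells that express a gene and a change in RNA per cell cannot be told apart.

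The libraries labelled KO held Spp1 reads, so the label is checked here in each. In KO naïve the normalized counts were 350.2, 53.1, 6.78 and 81.6, the lowest of them from 7 reads. In KO IOP they were 25.5, 810.7, 9.28 and 761.3. In KO ONC they were 4750.4, 6811, 15 and 6226. The 3 highest KO ONC libraries thus lay above every WT naïve and WT IOP library and below every WT ONC library, while replicate 3 was among the lowest of the series, with 14 reads. The table sums reads over the whole gene and gives no exon positions, so whether the reads of the libraries labelled KO came from a deleted part of the gene was not tested.

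In each condition the mean of the libraries labelled KO was below that of WT. It was 13.8% of the WT mean in naïve retinas, 18.1% after IOP elevation and 24.9% after ONC. The KO IOP libraries are those with Cx3cr1 at 1083 and with little Y chromosome RNA, and the part of that difference between the IOP groups was not tested. Y chromosome RNA also differed after ONC, at 0.000334 to 0.0125% of the WT ONC and 0.00927 to 0.0166% of the KO ONC libraries. Its part in the ONC values was not tested either. The groups did not overlap after IOP elevation or after ONC, and in naïve retinas 3 of 4 KO libraries were below every WT library. Exact permutation tests (two-sided, on mean log2 values) gave p = 0.0571 in naïve retinas, 0.0286 after IOP elevation and 0.114 after ONC, and 0.0857, 0.0857 and 0.114 after adjustment over the 3 conditions. The smallest p these designs allow is 0.0286. In limma the log2 fold changes of KO against WT were -3.66 (95% interval -6.93 to -0.38) in naïve retinas, -4.23 (-7.51 to -0.96) after IOP elevation and -3.71 (-7.24 to -0.17) after ONC, with adjusted p of 0.261, 0.141 and 0.506. KO ONC replicate 3 set much of the last value, which was -1.58 without that library. From naïve to ONC, Spp1 rose by 4.50 on the log2 scale in the libraries labelled KO (SE 1.58, limma, adjusted p = 0.0403), although KO ONC replicate 3 did not take part in this rise, and the call was lost in 6 of the 8 fits that left out a library (each of KO naïve replicates 2, 3 and 4 and KO ONC replicates 1, 2 and 4; 3.53 to 4.66). Without KO ONC replicate 3 this change was 6.63, and with KO naïve replicate 3 as the sole library of its group it was 7.43 (adjusted p = 0.217). The interaction of genotype and ONC was -0.05 (95% interval -4.87 to 4.77), so the interval holds large differences either way.

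**Figure D1:**
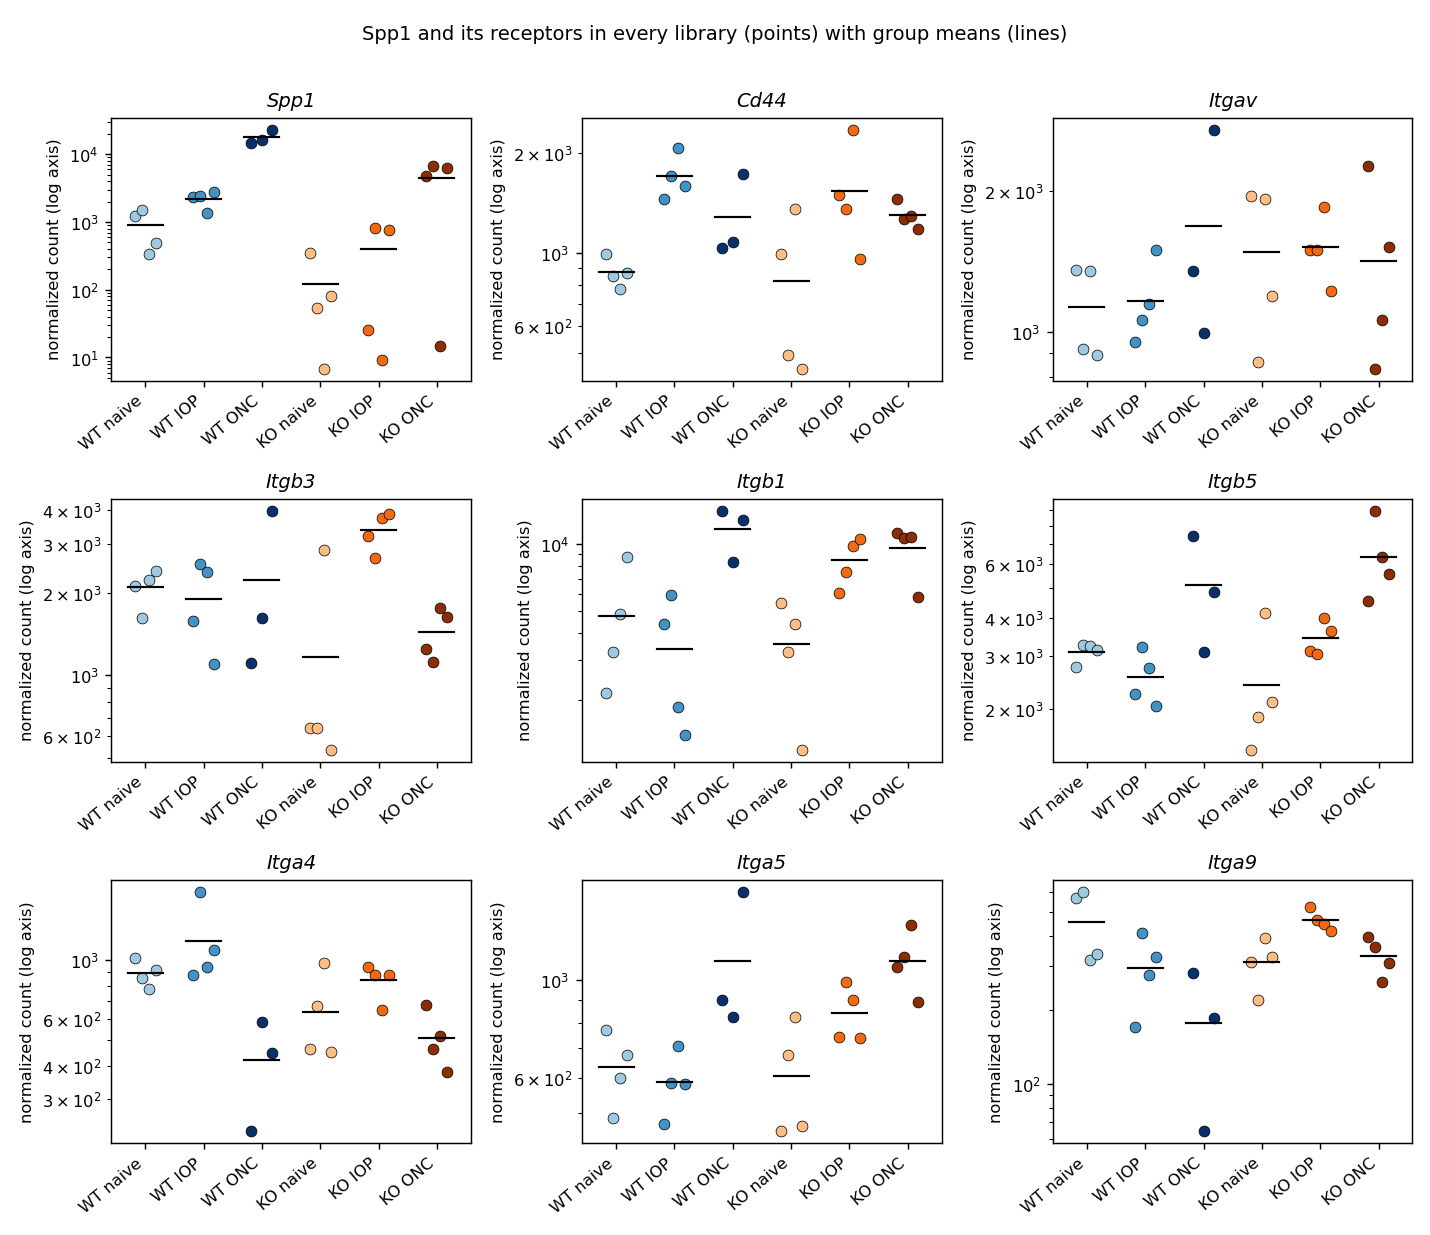
Normalized counts (log axes) of the 9 members in the 23 libraries, by group, with the mean of each group as a line. The 3 WT ONC libraries lie above all others for Spp1, between 14557 and 22906, and KO ONC replicate 3 lies at 15 beside 4750.4 to 6811 in the other KO ONC libraries.

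Markers of other retinal cells moved with Spp1 in part of these libraries. A list of 10 pigment epithelium genes held 0.339, 0.101, 0.00679 and 0.102% of the KO naïve libraries in order of replicate, and 0.00388, 0.0451, 0.00163 and 0.0409% of the KO IOP libraries. Within both of these groups the libraries with more pigment epithelium RNA had more Spp1, and KO naïve replicate 3 and KO IOP replicates 1 and 3, with the least, had 6.78, 25.5 and 9.28 normalized counts of Spp1. In KO ONC the list was at 0.00370, 0.00171, 0.00410 and 0.0862%, and replicates 1 and 2 held 4750.4 and 6811 normalized counts of Spp1 with about as little of the list as replicate 3, which held 15. In WT libraries the list was at most 0.0128%, and in WT ONC, where Spp1 was highest, 0.00147 to 0.00452%. The part of pigment epithelium RNA in the Spp1 counts of the libraries labelled KO was not tested. A list of 12 retinal ganglion cell genes was lowest in both ONC groups. It held 0.0393 to 0.0534% of the WT naïve libraries, 0.00223 to 0.0118% of the WT ONC libraries and 0.00615 to 0.0134% of the KO ONC libraries. Nefl, the neurofilament light chain, fell with it from 9939 ± 1852 (SD, n = 4) in WT naïve to 1406 ± 902 (SD, n = 3) normalized counts in WT ONC. The list of disease-associated microglia genes, to which Spp1 does not belong here, held 2.53 to 3.13% of the WT naïve, 4.21 to 5.85% of the WT ONC and 6.89 to 7.51% of the KO ONC libraries.

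**Figure D2:**
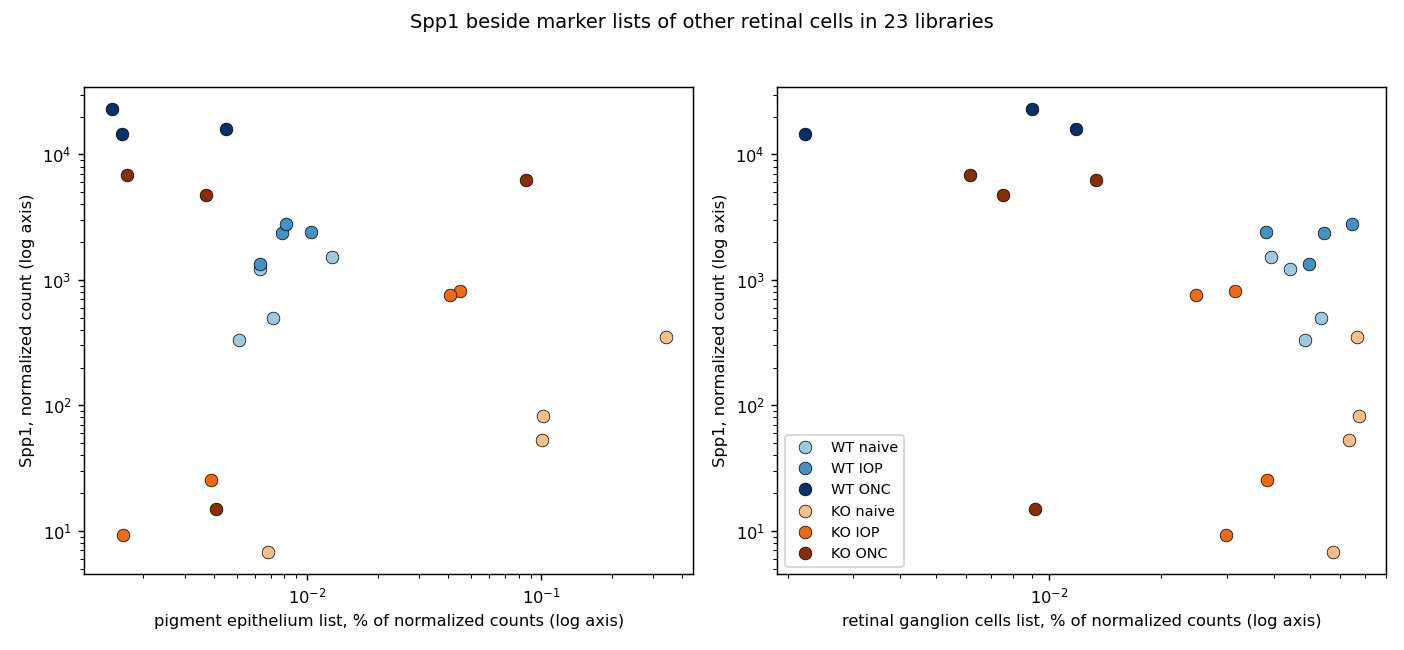
Spp1 (normalized count, log axis) in each of the 23 libraries against the pigment epithelium list (left) and the retinal ganglion cell list (right), each as % of a library's normalized counts on a log axis. WT ONC libraries combine the highest Spp1 with 0.00223 to 0.0118% of ganglion cell RNA, and KO naïve replicate 1 has the most pigment epithelium RNA at 0.339%.

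Levels of different genes were compared per length, as normalized counts per kilobase of the union of a gene's exons. In WT naïve libraries the beta1 subunit Itgb1 was highest at 1163 ± 706 (SD, n = 4) per kilobase, followed by the beta5 subunit Itgb5 at 870.04 ± 66.1, Spp1 at 542 ± 346 and the beta3 subunit Itgb3 at 354 ± 56.6. Cd44 (129 ± 13.2), the alpha5 subunit Itga5 (128 ± 24.2) and the alphaV subunit Itgav (105 ± 24.0) came next, and the alpha4 subunit Itga4 (63.6 ± 7.28) and the alpha9 subunit Itga9 (59.2 ± 19.3) were lowest. In every group each of the 3 beta subunits had a higher mean per kilobase than each of the 4 alpha subunits. After ONC, Spp1 in WT was at 10827 ± 2699.6 (SD, n = 3) per kilobase, above Itgb1 at 2882 ± 747. The union of exons includes rare long transcripts and was longest for Itga4, at 13978 bases.

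**Figure D3:**
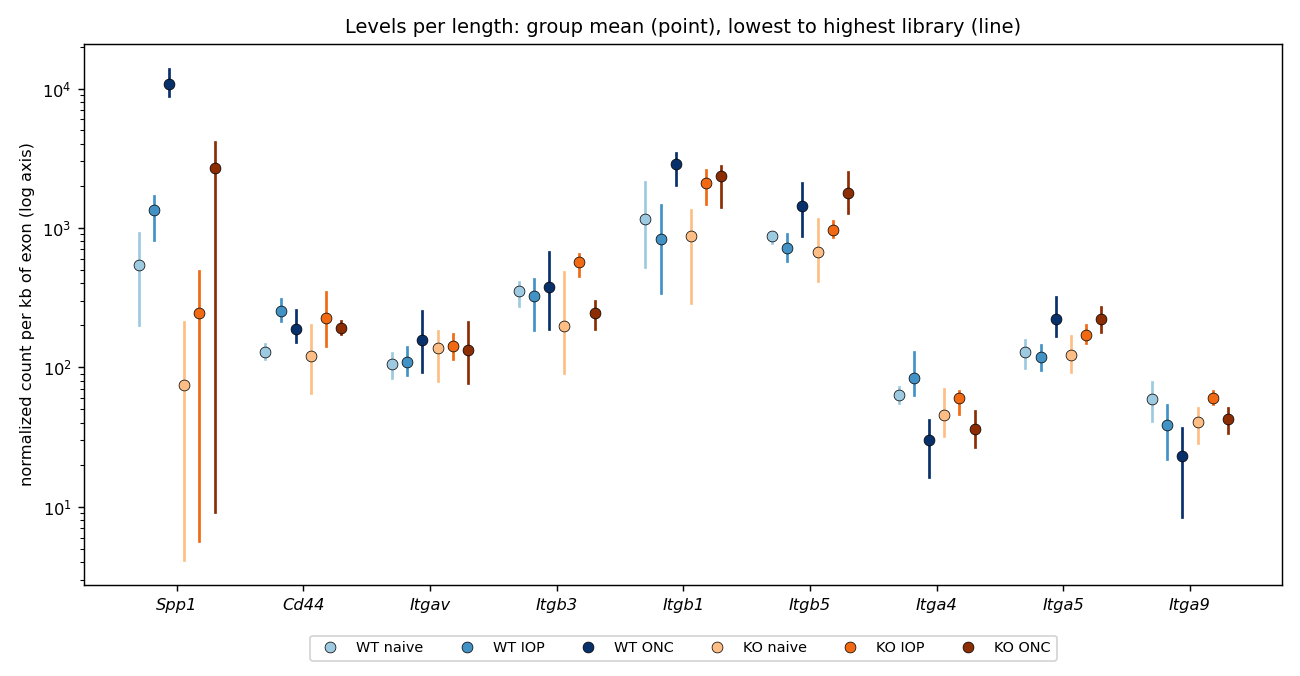
Mean normalized count per kilobase of exon (log axis) of each member in the 6 groups, with a line from the lowest to the highest library. Itgb1 and Itgb5 lie above the other receptor genes in every group, and Spp1 spans the widest range, from 74.6 per kilobase in KO naïve to 10827 in WT ONC.

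Cd44 was the receptor gene with the clearest separation after IOP elevation in WT. Its normalized counts were 995, 849.8, 780.4 and 870.2 in the WT naïve libraries and 1459, 1713.5, 2080.2 and 1595 in the WT IOP libraries, and the groups did not overlap. The log2 fold change was 0.96 (95% interval 0.35 to 1.57, limma), with an adjusted p of 0.111, so Cd44 did not pass the call. In this comparison 0 of 9 members were called with limma, beside 1.56% of all genes tested, and Cd44 was the single member with an unadjusted p under 0.05, as 13.3% of all genes had. The part of the lens RNA in the WT IOP libraries was not tested. Cd44 was called by DESeq2 (adjusted p = 0.0455), in a fit of the compared groups alone (0.0151) and with the rod photoreceptor (0.0152) or microglia list (0.0167) as a covariate, and not by edgeR (0.135). With WT IOP replicates 2 and 3 alone in their group, the libraries without the low microglia list, the log2 fold change was 1.12 (adjusted p = 0.380). After ONC, Cd44 was at 1037, 1079 and 1738 in WT, again above every WT naïve library, with a log2 fold change of 0.52 (95% interval -0.14 to 1.18, adjusted p = 0.257).

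Itgav, the alpha partner in the alphaV integrins, was called in 0 of the 10 comparisons. It was at 1359.96, 920.05, 1348 and 895 normalized counts in WT naïve, 951, 1059.85, 1148 and 1500.5 in WT IOP and 1349, 998 and 2703 in WT ONC. The 6 groups all overlapped with their neighbours in order of mean, from 1131 ± 258 (SD, n = 4) in WT naïve to 1683 ± 901 (SD, n = 3) in WT ONC. The intervals of the log2 fold change against naïve were -0.62 to 0.72 for WT IOP and -0.25 to 1.19 for WT ONC, so a doubling, 1 on this scale, lay outside the first and inside the second.

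After ONC the receptor genes of WT libraries moved in both directions. Against WT naïve, 3 of 9 members were called, where 18.1% of all genes were. Itga5 rose, and Itga4 and Itga9, the subunits of the receptors of thrombin-cleaved SPP1, fell. Against WT IOP, 4 of 9 members were called, beside 21.7% of all genes: Itgb1, Itgb5 and Itga5 rose and Itga4 fell. The median log2 fold change of the 9 members was 0.52 against WT naïve and 0.42 against WT IOP, and that of all genes -0.10 and -0.12. These comparisons share the WT ONC libraries. Of them, replicate 2 had a rod photoreceptor list of 1.98%, against 0.525 and 0.635% in replicates 1 and 3. A list of 15 monocyte and border macrophage markers held 0.120 to 0.245% of the WT naïve and 0.127 to 0.330% of the WT IOP libraries. In WT ONC it held 0.0213 to 0.0556%. This list was not among the covariates, so its part in the changes of the members was not tested. The Y chromosome list held 0.000413 to 0.0217% of the WT naïve and 0.00532 to 0.0195% of the WT IOP libraries. It held 0.000334 to 0.0125% of the WT ONC libraries, and its part was not tested either.

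Itga4 was at 1016, 851, 775 and 912 normalized counts in WT naïve, 879, 1795, 939 and 1088 in WT IOP and 227, 582 and 447 in WT ONC. All WT ONC libraries were below all WT naïve and WT IOP libraries. The log2 fold change was -1.18 (SE 0.32, adjusted p = 0.0126) against WT naïve and -1.53 (SE 0.32, adjusted p = 0.00276) against WT IOP. Both calls held with the rod photoreceptor, microglia and pigment epithelium lists as covariates and in edgeR and DESeq2, and not in a fit of the compared groups alone (adjusted p = 0.0591 and 0.0725). Without WT ONC replicate 1, the value against WT naïve was -0.79 and the call was lost.

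Itga9 was at 567, 599, 318 and 337 normalized counts in WT naïve and at 282, 64.4 and 186 in WT ONC, without overlap. Its log2 fold change was -1.53 (SE 0.39, adjusted p = 0.00924), and -0.93 without WT ONC replicate 2, where the call still held. In a fit of the compared groups alone the adjusted p was 0.106. With the rod list as a covariate it was -2.04 (adjusted p = 0.000787). Against WT IOP it was -0.90 (adjusted p = 0.0951), and the groups overlapped, since WT IOP replicate 1 was at 170.4.

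Itga5, the alpha subunit of the classical fibronectin receptor, was at 770.5, 488, 601 and 675 normalized counts in WT naïve and at 899, 823 and 1572 in WT ONC, without overlap. It rose by 0.75 on the log2 scale against WT naïve (SE 0.25, adjusted p = 0.0401) and by 0.85 against WT IOP (adjusted p = 0.0203). The first of these calls was lost in 5 of the 7 fits that left out a library (WT naïve replicates 2, 3 and 4 and WT ONC replicates 1 and 3), with 0.46 without WT ONC replicate 3, and the second without WT IOP replicate 1 or WT ONC replicate 3. With the rod list as a covariate they were 0.48 (adjusted p = 0.229) and 0.46 (adjusted p = 0.414).

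Among the beta subunits, Itgb1, the partner of alpha4, alpha5 and alpha9, was at 2147, 3266, 4832 and 8741 normalized counts in WT naïve, 4373, 5938, 1859 and 1383 in WT IOP and 14103, 8314 and 12863 in WT ONC. WT ONC lay above WT IOP throughout (log2 fold change 2.00, SE 0.51, adjusted p = 0.0105), while against WT naïve the highest naïve library overlapped (1.47, adjusted p = 0.0503). WT IOP replicates 1 and 4 are those with the low microglia list, and without both the rise against WT IOP was 1.79 (adjusted p = 0.0857). It was 1.39 (adjusted p = 0.243) with the rod list as a covariate, and without WT ONC replicate 1 it was 1.85 (adjusted p = 0.0613). Itgb5 was at 2253, 3208, 2729 and 2056 in WT IOP and at 7403, 3090 and 4839 in WT ONC, which overlapped. Its rise of 0.93 over WT IOP (adjusted p = 0.0308) became 0.32 (adjusted p = 0.338) with the microglia list as a covariate and 0.70 (adjusted p = 0.235) with WT IOP replicates 2 and 3 alone. The call was lost without WT IOP replicate 1 or 4 and without WT ONC replicate 1 or 3, with 0.62 without WT ONC replicate 1. Itgb3, which pairs with alphaV in the vitronectin receptor, was called in no comparison among WT libraries and spread from 1114 to 3966 within WT ONC.

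The comparisons of injured with naïve retinas in the libraries labelled KO rest on the KO naïve group, in which replicates 1, 2 and 4 had the low microglia and high rod photoreceptor lists given above. After IOP elevation, where the KO IOP libraries had the low Cx3cr1 and Y chromosome RNA, 2 of 9 members were called, beside 7.88% of all genes: Cd44 rose by 0.99 (adjusted p = 0.0431) and Itgb3 by 1.90 (adjusted p = 0.0168). After ONC, 5 of 9 were called, beside 23.6% of all genes: Spp1 as described above, Cd44 (0.81, adjusted p = 0.0470), Itgb1 (1.58, adjusted p = 0.0185), Itgb5 (1.47, adjusted p = 0.000616) and Itga5 (0.89, adjusted p = 0.00732). Itgb5 was at 1471, 1882, 4131 and 2116 in KO naïve and at 4544, 8946, 6332 and 5566 in KO ONC, without overlap. Itga5 was at 456, 677, 822 and 467 in KO naïve and at 1068, 1121, 1325 and 891 in KO ONC, also without overlap. With the microglia list or the rod photoreceptor list as a covariate, 0 members were called in either comparison, and so it was with KO naïve replicate 3 as the sole library of its group, whose spread is then taken from the other groups. In that last fit the log2 fold change was 0.57 for Itgb5 (adjusted p = 0.591), 0.41 for Itga5 (adjusted p = 0.702) and, after IOP elevation, 0.22 for Itgb3. Of the fits that left out 1 library, Itgb5 and Itga5 were called in all 8 after ONC, whereas Cd44 was lost in 6 of 8 after either injury, Itgb1 without KO naïve replicate 4 or KO ONC replicate 2 or 3, and Itgb3 without KO naïve replicate 1, 2 or 4. With KO naïve replicate 3 as its sole library the KO naïve group has no spread of its own, so the missing calls there decide nothing.

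**Figure D4:**
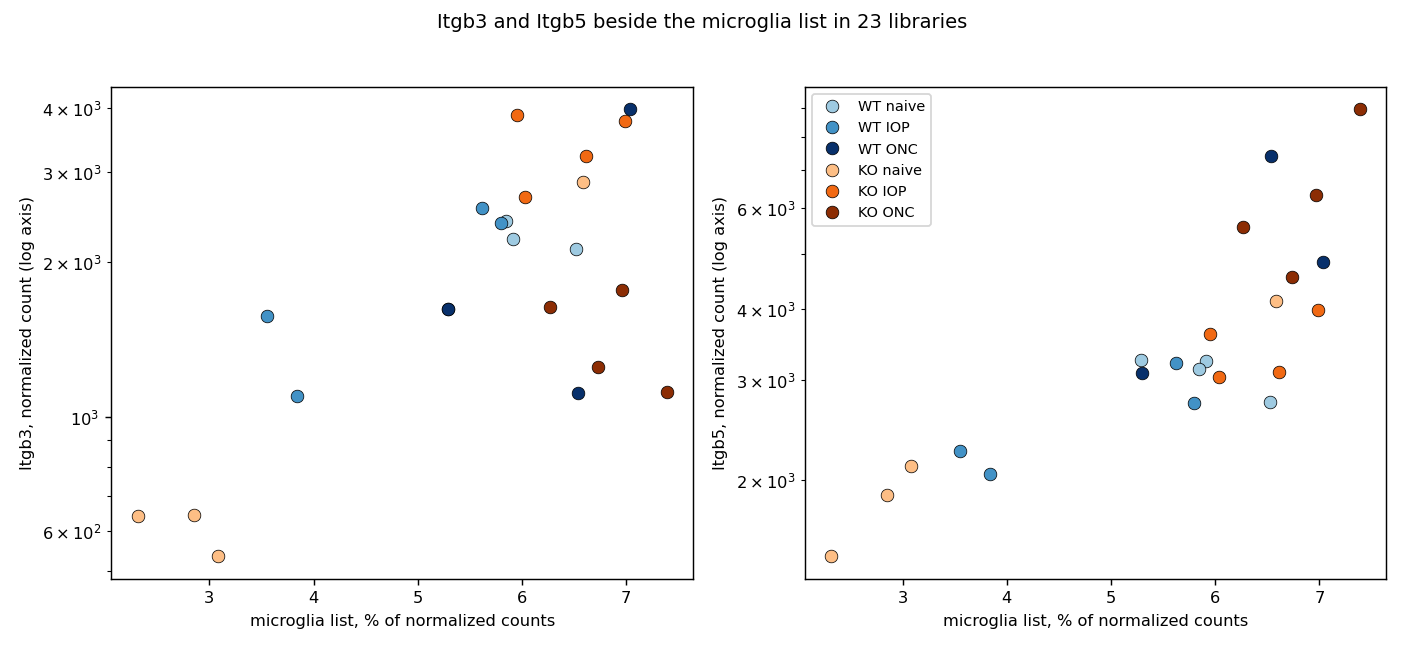
Itgb3 (left) and Itgb5 (right) as normalized counts (log axes) against the microglia list (% of a library's normalized counts) in the 23 libraries. KO naïve replicates 1, 2 and 4 lie at 2.32 to 3.08% of microglia RNA with Itgb3 between 535 and 644, and KO naïve replicate 3 lies at 6.59% with 2863.

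Between the genotypes, 0 of 9 members were called in naïve retinas, after IOP elevation and after ONC, beside 0.409, 2.11 and 0.0877% of all genes. At an unadjusted p under 0.05, 2, 4 and 2 of the 9 members were found, beside 15.6, 21.1 and 9.36% of all genes. In naïve retinas, Itgb3 (-1.77) and Itgb5 (-0.77) were called as lower in KO without KO naïve replicate 3. The remaining KO naïve libraries are the 3 with the low microglia list, and 1623 of all genes were called in that fit, against 70 with the replicate. With edgeR and with DESeq2 on recovered reads the count was also 0 in each of the 3 conditions. For Cd44 the 95% intervals of the log2 fold change of KO against WT were -0.85 to 0.37 in naïve retinas, -0.82 to 0.39 after IOP elevation and -0.61 to 0.71 after ONC, which leave out a doubling or a halving. For Itgav they were -0.33 to 1.007, -0.28 to 1.05 and -0.94 to 0.50.

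After IOP elevation 4 receptor genes did not overlap between the genotypes, all higher in the libraries labelled KO. Over all genes tested, 5.11% had every KO IOP library above every WT IOP library. Itgb1 was at 6066, 7536, 9859 and 10548.5 in KO IOP, above every WT IOP library (log2 fold change 1.54, 95% interval 0.55 to 2.53, adjusted p = 0.0877). Itgb3 was at 3214, 2676, 3757 and 3861 in KO IOP and at 1573, 2547, 2385 and 1096 in WT IOP (0.89, 0.02 to 1.77, adjusted p = 0.228). Itga5 (0.52, 0.04 to 1.00, adjusted p = 0.203) and Itga9 (0.70, -0.04 to 1.45, adjusted p = 0.265) had smaller differences. None of the 4 passed the call, though Itgb1 did without WT IOP replicate 2 (1.89, adjusted p = 0.0393). The KO IOP libraries had Cx3cr1 at 1083 against 41166 in WT IOP. Their list of Y chromosome genes held at most 0.000636% of a library, against 0.00532% or more in WT IOP. By this list the sexes were not balanced between the IOP groups. The part of either difference was not tested, and neither can be told apart from genotype here. WT IOP replicates 1 and 4 had the low microglia list, and with replicates 2 and 3 alone the values for Itgb1 and Itgb3 were 1.32 and 0.44.

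After ONC the largest receptor difference between the genotypes was in Itga9, at 393, 359, 258 and 308 in KO ONC and 282, 64.4 and 186 in WT ONC (log2 fold change 1.11, 95% interval 0.30 to 1.92, adjusted p = 0.349). The ranges overlapped by the highest WT ONC and the lowest KO ONC library. The Y chromosome list held 0.000334 to 0.0125% of the WT ONC and 0.00927 to 0.0166% of the KO ONC libraries. The part of that difference was not tested.

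The change with IOP elevation differed between the genotypes in 1 of 9 members, Itgb3, where 8.75% of all genes had an interaction of genotype and IOP. The interaction was 2.11 on the log2 scale (95% interval 0.87 to 3.34, adjusted p = 0.0316). It joins a log2 fold change of -0.20 in WT to one of 1.90 in the libraries labelled KO. In KO naïve, Itgb3 was at 641, 644, 2863 and 535, so replicates 1, 2 and 4, with the low microglia list, were also those with low Itgb3. The interaction was 0.76 (adjusted p = 0.654) with the microglia list as a covariate, 1.06 (adjusted p = 0.429) with the rod photoreceptor list and 0.42 (adjusted p = 0.908) with KO naïve replicate 3 as the sole library of its group. It was also not called by edgeR (adjusted p = 0.102) or DESeq2 (0.0638), and the call was lost in 10 of the 16 fits that left out a library (WT naïve replicates 1, 3 and 4, WT IOP 1 and 4, KO naïve 1, 2 and 4 and KO IOP 3 and 4), with 1.86 at the lowest. For the interaction of genotype and ONC, 0 of 9 members were called, beside 0.0702% of all genes. At an unadjusted p under 0.05 there were 2 members, Itga4 and Itga9, beside 12.4% of all genes, and edgeR and DESeq2 called 0.

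**Figure D5:**
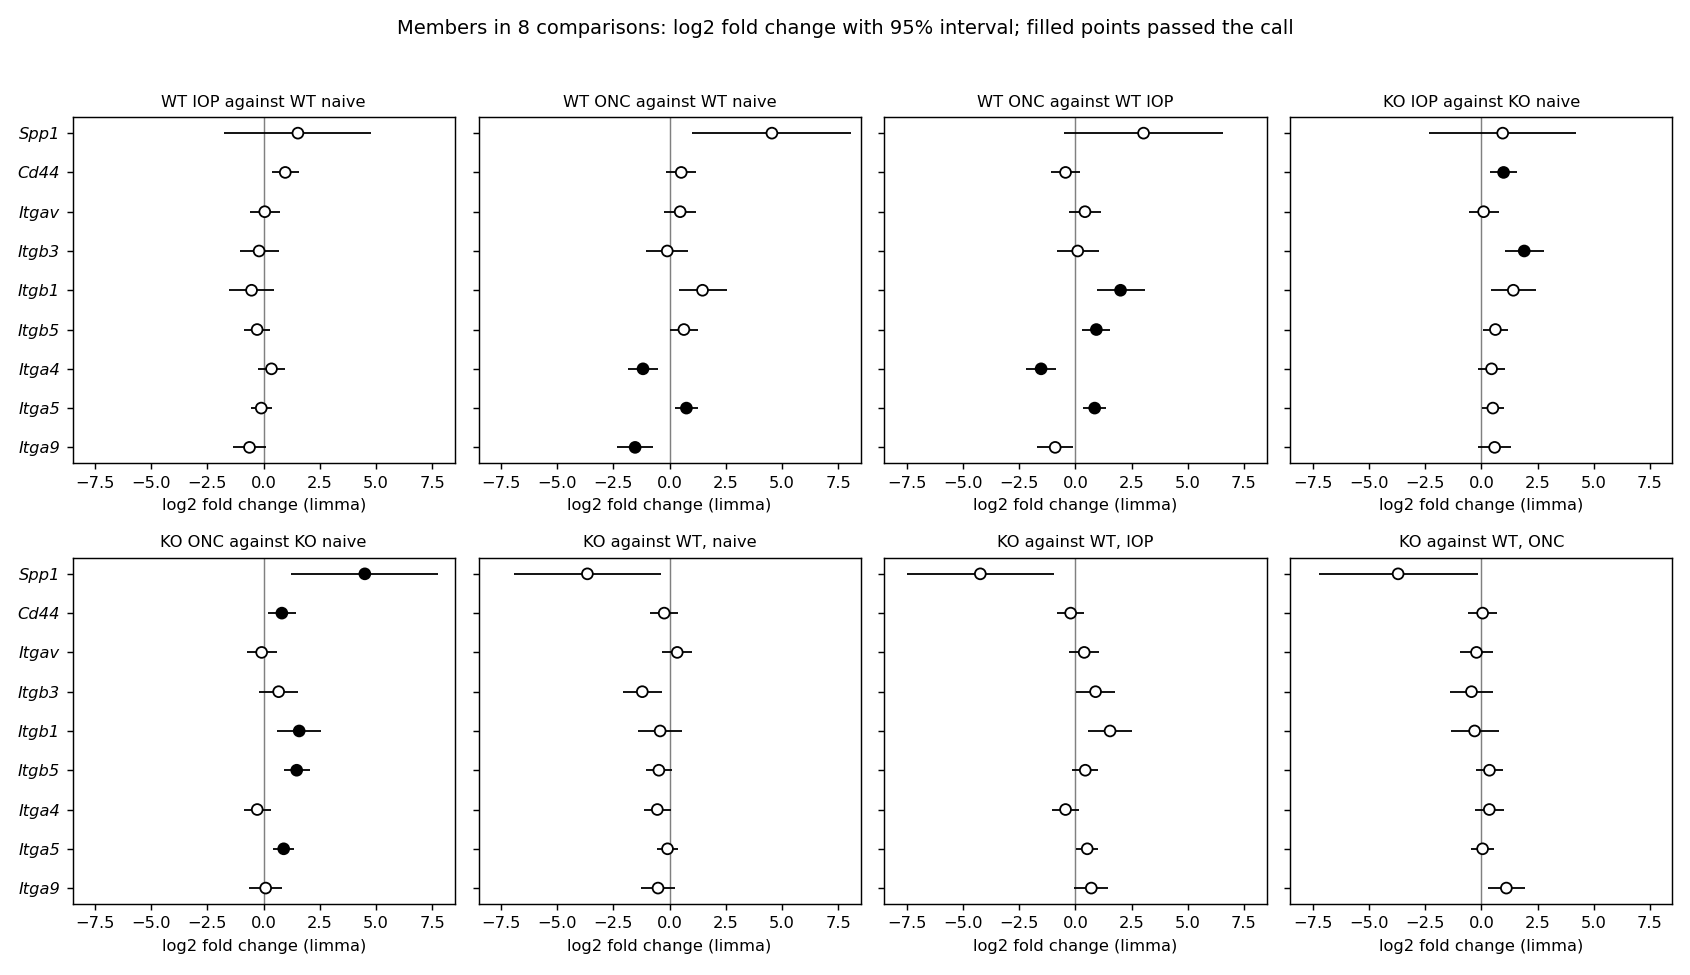
Log2 fold changes of the 9 members in 8 comparisons (limma, points) with 95% intervals (lines); filled points passed the call. No point is filled in the 3 comparisons of KO with WT, and the intervals of Spp1 are the widest in each comparison.

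The other genes of the pathway were taken from lists of ligands, partners and signalling genes. Of 22 tested ligands that share these receptors, 2 were called in WT IOP against WT naïve, beside 1.56% of all genes. Tnc, which encodes the matrix glycoprotein tenascin-C, a ligand of alpha9-beta1, fell by 1.65 (adjusted p = 0.00492) and Lgals3, which encodes galectin-3, rose by 1.40 (adjusted p = 0.0257). With WT IOP replicates 2 and 3 alone in their group, 0 genes of the pathway lists were called against WT naïve. After ONC in WT, 4 rose and 2 fell, beside 18.1% of all genes called, and Tnc fell from 2034 ± 309 (SD, n = 4) to 168 ± 38.1 (SD, n = 3) normalized counts. In the libraries labelled KO, Tnc was at 764 ± 395 (SD, n = 4) after ONC, 2.07 higher than in WT ONC on the log2 scale (adjusted p = 0.00630), with an interaction of genotype and ONC of 2.91 (adjusted p = 0.00832). Tnc and Lyve1 were the called genes of the pathway lists in KO against WT after ONC, beside 0.0877% of all genes. Lyve1, a hyaluronan receptor related to CD44 and a marker of border macrophages, was at 97.9 ± 85.5 (SD, n = 3) in WT ONC and 653 ± 397 (SD, n = 4) in KO ONC (2.97, adjusted p = 0.00908). After IOP elevation the called ligand genes of KO against WT were Npnt, which encodes the alpha8-beta1 ligand nephronectin, at 2425 ± 788 against 699 ± 449.6 (SD, n = 4 each; 2.01, adjusted p = 0.0324), and the basement membrane gene Nid1, at 3.84 ± 4.93 against 267 ± 250.02. In the same comparison 15 of 16 lens genes were called as lower in KO, beside 2.11% of all genes, and with WT IOP replicates 2 and 3 alone in their group 0 of the 22 ligands were called. The part of lens RNA, of the Cx3cr1 difference and of the Y chromosome difference was not tested. The list of monocyte and border macrophage markers, which holds Lyve1, was at 0.0213 to 0.0556% in WT ONC and 0.0569 to 0.148% in KO ONC. The Y chromosome list was at 0.000334 to 0.0125% in WT ONC and 0.00927 to 0.0166% in KO ONC. The part of either list in the differences of Tnc and Lyve1 after ONC was not tested.

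Of 19 other integrin subunits tested, 0 were called in WT IOP against WT naïve, beside 1.56% of all genes. In WT ONC against WT naïve 4 were called, beside 18.1% of all genes. Itgax, the alpha subunit of a complement receptor of activated microglia, rose by 2.96 (adjusted p = 0.000226), and Itgb2, its beta2 partner, by 1.06 (adjusted p = 0.0233). Itga7 fell by 3.27, from 370.4 ± 77.4 (SD, n = 4) normalized counts in WT naïve. Itga8 was also called as lower, from 42.1 ± 24.7 (SD, n = 4) to 1.15 ± 1.99 (SD, n = 3), which is under 3 reads, so no fold is given. With the rod photoreceptor list as a covariate Itgax alone stayed called, and with the microglia list Itgax, Itgb2 and Itga7 did.

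Among 44 tested integrin adaptors and signalling genes, 0 were called in WT IOP against WT naïve, and in WT ONC 10 rose and 2 fell against WT naïve, beside 18.1% of all genes called. Their median log2 fold change was 0.36, beside -0.10 over all genes. The risers included the small GTPase gene Rap1b (2.82, adjusted p = 0.00438), the tetraspanin gene Cd9 (1.93, adjusted p = 0.00114), which also stands in the list of disease-associated microglia, and Cd47 (1.28, adjusted p = 0.0148), which encodes an integrin-associated protein. Parva, which encodes parvin alpha, fell by 1.53, and Dock1, a Rac activator gene, fell too. When the fit included the rod photoreceptor list, 3 rose and 4 fell in WT ONC against WT naïve, and Cd47 was not called. When it included the microglia list, 7 rose and 3 fell, and Cd47 was called. Rap1b, Cd9, Parva and Dock1 were called in both of these fits. In KO ONC against KO naïve 22 rose and 2 fell, and in KO IOP against KO naïve 10 rose and 1 fell, beside 23.6 and 7.88% of all genes called. With the microglia or the rod photoreceptor list as a covariate these became 1 (Rac2) after ONC and 0 after IOP elevation, and with KO naïve replicate 3 alone in its group 0 and 0. Between the genotypes 1 was called, in naïve retinas, beside 0.409% of all genes there. Tln1, which encodes the integrin activator talin, was lower by 1.04 (adjusted p = 0.0280) in KO naïve than in WT naïve. This call rests on the KO naïve group, which holds the libraries with the low microglia list described above. It held when the fit included the rod photoreceptor list and was lost when it included the microglia list.

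The calls that follow stand beside 1.56% of all genes in WT IOP against WT naïve and 18.1% in WT ONC against WT naïve. Of 12 tested genes that cleave or modify SPP1, Mmp9 fell by 1.98 (adjusted p = 0.0128) and the transglutaminase gene Tgm2 rose by 1.82 (adjusted p = 0.00975) in WT IOP against WT naïve. In WT ONC against WT naïve Mmp9 fell by 3.45 and Mmp2, Tgm2 and Fam20c, a kinase gene of secreted phosphoproteins, rose by 2.14, 1.72 and 1.59. Of 17 tested regulators of Spp1 transcription, 0 were called in WT IOP against WT naïve, and in WT ONC against WT naïve Tfeb rose by 1.43 (adjusted p = 0.0236) and Fos fell by 1.51 (adjusted p = 0.00739). In WT ONC against WT naïve, Fos stayed called with the rod photoreceptor list as a covariate and Tfeb did not. With the microglia list both stayed called. Of 19 partners of CD44, Cd74, the invariant chain that pairs with CD44 as a receptor of MIF, rose by 2.22 (adjusted p = 0.0482) in WT IOP, and in WT ONC Mmp14, which sheds CD44, and Hmmr, another hyaluronan receptor gene, rose by 3.28 and 2.15, while Lyve1, Ank3 and Lgr5 fell. Of the 5 tested SIBLING genes and neighbours of Spp1 on chromosome 5, Sparcl1 fell by 3.04 (adjusted p = 3.21e-05) and Nudt9 rose by 1.95 (adjusted p = 0.00437) in WT ONC. No SIBLING or neighbouring gene was called in KO against WT in any condition, beside 0.409% (naïve), 2.11% (IOP) and 0.0877% (ONC) of all genes.

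The genes whose log2 values were most like those of Spp1 over the 23 libraries, among 17102 genes, were Fosl1 (Pearson r = 0.80, Spearman rho = 0.85), Sprr1a (0.77 and 0.84) and Helz2 (0.76 and 0.74). After group means were subtracted the Pearson values were 0.67, 0.65 and 0.57. Fosl1 encodes an AP-1 factor and Sprr1a a protein that injured neurons make. Both were near the limit of counting, with group means of at most 14.9 for Fosl1 and 17.3 for Sprr1a. For Cd44 the genes were Tubb6 (r = 0.77, rho = 0.68), Bag3 (0.75 and 0.74) and Junb (0.73 and 0.51), and for Itgav they were Mapk14 (0.70 and 0.56), Sun2 (0.69 and 0.60) and Tmem248 (0.67 and 0.44). Libraries of a group share their treatment and, in part, the cells of other types described above, so these values are a description.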

How the data were processed

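Sorted GFP+ microglia were sequenced as 23 libraries. The authors deposited 1 table of normalized counts (a signal with the library's depth divided out) for 35825 genes on GRCm38. The study's methods name salmon for mapping reads and DESeq2 for differential expression, and the submitters' processing notes name STAR and DESeq2. Dividing by the value of 1 read gave whole reads in all 23 libraries (tolerance 0.01 read, largest deviation 0.000208). Columns not mapped to a sample were 0. Groups came from the sample labels.

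Genes with at least 10 normalized counts in at least 3 libraries (17102) were tested with limma 3.58.1 (R 4.3.3) after adding a pseudocount of 1 and taking log2, in 1 fit of 6 groups and 10 comparisons, with Benjamini-Hochberg adjustment. A call needed an adjusted p under 0.05 together with a log2 fold change above 0.58 or under -0.58. Fold changes are on that log2 scale and understate changes of low genes. edgeR 4.0.16 and DESeq2 1.42.0 were run on the recovered reads as alternatives. Spp1 was also compared between genotypes by exact permutation. Lists are described by counts and medians, with no set test. Percentages of marker lists are shares of a library's normalized counts. Besides the members, the genes named were up to 6 called genes of each pathway list by absolute log2 fold change, the 3 tested genes with the highest Pearson correlation to Spp1, Cd44 and Itgav, and P2ry12 and Cx3cr1 as checks; Nefl was chosen after its values were seen. The members and the lists were chosen with earlier results of these data known. Alternatives were other pseudocounts, filters and scalings, a replicate block, the compared groups alone, each library left out, and rod photoreceptor or microglia lists as a covariate. A pigment epithelium covariate, KO naïve replicate 3 alone in its group and WT IOP replicates 2 and 3 alone in theirs were chosen after seeing the data. Scripts were tested on simulated data.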

Additional observations from a re-analysis of the deposited data

Results flagged for a closer look

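In groups of 4 libraries, 45 combinations of member and group were examined for a library far from the others (Dixon's test, which flags about 1 group in 20 by chance), and 2 were found. Itgb3 was at 2863 normalized counts in KO naïve replicate 3 and at 535 to 644 in the other KO naïve libraries. That library is the one with a microglia list of 6.59%, beside 2.32 to 3.08% in the others. Itgb1 was at 5764 in KO ONC replicate 4 and at 10634.5 to 11275 in the other KO ONC libraries, and that library had a pigment epithelium list of 0.0862%, beside 0.00171 to 0.00410%. The change of Itgb3 with IOP elevation differed between the genotypes, with an interaction of 2.11 on the log2 scale (limma, adjusted p = 0.0316), which rests on the KO naïve group above. The part of the marker lists in these 3 results was not tested beyond the covariates given for Itgb3.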

How the results depend on the processing

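The number of members called depended on the setting in 6 of the 10 comparisons. In WT IOP against WT naïve it was 0, and 1 (Cd44) with the compared groups alone, the rod or the microglia covariate and DESeq2. In WT ONC against WT naïve it was 3, and 1 (Spp1) with the compared groups alone and 5 with DESeq2. In WT ONC against WT IOP it was 4, and 2 with quantile normalization and the rod or microglia covariate, and 1 with the compared groups alone or WT IOP replicates 2 and 3. In KO IOP against KO naïve it was 2, and 1 without a filter or with upper-quartile rescaling, and 0 with the compared groups alone, each of the 3 covariates, edgeR and KO naïve replicate 3 alone. In KO ONC against KO naïve it was 5, and 3 without a filter or with the compared groups alone, 2 with the pigment epithelium covariate, and 0 with the other covariates and KO naïve replicate 3 alone. The interaction of genotype and IOP had 1, and 0 with the 3 covariates, edgeR, DESeq2, KO naïve replicate 3 alone and WT IOP replicates 2 and 3. The KO against WT comparisons and the interaction of genotype and ONC had 0 in each of these settings. The cause was not tested. Leaving out 1 library gave 0 to 0, 1 to 5, 2 to 4, 0 to 4 and 2 to 5 members in the 5 comparisons within a genotype in that order, 0 to 2, 0 to 1 and 0 to 0 in KO against WT (naïve, IOP, ONC), and 0 to 3 and 0 to 0 for the interactions with IOP and ONC.

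Some directions of Spp1 and Cd44 turned. Spp1 in KO IOP against KO naïve ranged from -0.029 (without KO naïve replicate 3) to 2.10 (without KO IOP replicate 3), and Cd44 in KO ONC against KO naïve was -0.066 with KO naïve replicate 3 alone. The interaction of genotype and IOP for Spp1, at -0.58, became 1.39 with the rod, 2.16 with the microglia and 1.83 with the pigment epithelium covariate, 0.40 with edgeR, 0.39 with DESeq2 and 2.35 with KO naïve replicate 3 alone, and ranged from -1.55 to 0.58 with a library left out. That of genotype and ONC, at -0.05, became 0.57 with quantile normalization, 0.77, 2.08 and 1.15 with the covariates in that order, 0.87 with edgeR, 0.86 with DESeq2 and 2.87 with KO naïve replicate 3 alone, and ranged from -1.03 to 2.08. In the exact test Spp1 in KO against WT ranged from -4.51 to -2.68 (naïve; exact adjusted p = 0.0429 without KO naïve replicate 1), -5.18 to -3.08 (IOP) and -4.49 to -1.58 (ONC).

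The count over all genes moved by over 1.5 times in many settings, given first for those that kept all libraries or named a reduced group. It was 267 in WT IOP against WT naïve (15 with WT IOP replicates 2 and 3 to 613 with DESeq2), 3093 in WT ONC against WT naïve (1724 with the rod covariate to 3696 with DESeq2) and 3715 in WT ONC against WT IOP (405 with the rod covariate to 4112 with DESeq2). It was 1347 in KO IOP against KO naïve (5 with the compared groups alone to 1949 with DESeq2) and 4043 in KO ONC against KO naïve (74 with KO naïve replicate 3 alone to 4611 with DESeq2). In KO against WT it was 70 in naïve retinas (0 with the pigment epithelium covariate to 537 with DESeq2), 360 after IOP elevation (29 with WT IOP replicates 2 and 3 to 981 with DESeq2) and 15 after ONC (2 with edgeR to 103 with DESeq2), and for the interactions 1496 with IOP (48 with KO naïve replicate 3 alone to 2205 with DESeq2) and 12 with ONC (3 with edgeR to 244 with DESeq2). With 1 library left out it was 102 (without WT IOP replicate 1) to 332 (WT IOP 3), 1458 (WT ONC 1) to 5213 (WT ONC 2), 1259 (WT ONC 1) to 5826 (WT ONC 2), 92 (KO naïve 2) to 3182 (KO naïve 3) and 2798 (KO naïve 2) to 5098 (KO naïve 3) within a genotype, 1 (KO naïve 2) to 1623 (KO naïve 3), 109 (WT IOP 4) to 574 (WT IOP 2) and 2 (WT ONC 1) to 744 (WT ONC 2) between genotypes, and 573 (WT IOP 1) to 3074 (KO naïve 3) and 3 (WT naïve 1) to 633 (KO naïve 3) for the interactions. Same-numbered libraries deviated together little (29 pairs, correlations of -0.253 to 0.153, 3 over 0.1), and 6 of 29 libraries correlated best with their own number. The 3 correlations over 0.1 were all in KO ONC against KO naïve, where 3 of 4 libraries correlated best with their own number. In WT ONC against WT naïve 2 of 3 did. With 3 or 4 libraries in a group this check cannot exclude a pairing. With a replicate block the members called were 0, 4, 4, 2, 5, 0, 0, 0, 1 and 0 over the 10 comparisons, and Spp1 was called in WT ONC against WT naïve (4.90, limma, adjusted p = 0.0240). Depth limits Spp1 in the libraries labelled KO most, with 7, 9, 14 and 25 reads at the lowest, beside 56 or more for any other member.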
